A study of Mus musculus with 310 samples.

Results

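The heat shock proteins and J-domain proteins of mouse epidermal cells are described here, 63 of the 14068 genes in the count table. Members were taken by symbol: every gene named as an Hspa, Hspb, Hspd, Hspe, Hsph or Hsp90 gene, and every gene whose symbol begins with Dnaj. By family these were 10 HSP70 genes, 3 HSP110 genes, 3 HSP90 genes, 4 small heat shock protein genes, 1 HSP60 gene, 2 HSP10 genes, and 4 DNAJA, 11 DNAJB and 25 DNAJC genes. Hspb11 is a heat shock gene by symbol only, since its product belongs to the intraflagellar transport machinery of the cilium.

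The study asked how long epidermal cells keep a trace of an earlier wound, and the cells described here were sorted from aged skin, either repaired after a wound or kept as a control of the same age. All mice carried Lrig1-EGFP-ires-CreERT2 and Rosa26-fl/STOP/fl-tdTomato alleles on a CBA C57BL/6 mixed background, so that hydroxytamoxifen applied once to tail skin marked cells with active Lrig1, a gene of the upper hair follicle, and all their descendants with the red protein tdTomato. Red keratinocytes were sorted singly into plates and sequenced over their full length without molecular identifiers. Both groups were labelled 38 weeks. The group 38w held replicates RepI (plates C114 with 53 cells and C118 with 17) and RepL (plate C119, 75 cells), and the group 38wUW held RepM (plate C128, 82 cells) and RepN (plate C129, 83 cells). The labels do not spell out UW or say which group had been wounded, so differences are given as 38w against 38wUW, with n = 2 replicates a group, and nothing in the labels says how many mice stand behind a replicate.

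Chaperones bind proteins that are unfolded or only partly folded and keep them from clumping. HSP70 proteins work in cycles of ATP use: a J-domain protein brings the client and starts ATP cleavage, an HSP110 protein renews the ATP, and HSP90 takes over later steps for kinases and hormone receptors. HSP60 and its HSP10 lid form a folding chamber in mitochondria, Hspa5 and Hsp90b1 serve the endoplasmic reticulum, and small heat shock proteins hold clients without ATP. Some members are made at all times (Hspa8, Hsp90ab1), others in bursts on stress through heat shock factor 1 (Hspa1a, Hspa1b, Dnajb1), and in skin Hspb1 is best known from the upper, differentiating layers of the epidermis.

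Bases before the start sites were searched for the letters of 2 stress elements. RefSeq windows (GRCm38.p6) of 300 bases, from 250 before to 50 after each start, were at hand for 51 of the 63 members. A pair of facing heat shock factor units, GAANNTTC or TTCNNGAA, each of which reads the same on both strands, stood in at least 1 window of 14 of these 51 genes (27.5%), against 14.7% of the 11050 genes of the table with a window and 17.0% of all 27025 genes. A run of 3 units (GAA, TTC and GAA, or TTC, GAA and TTC, each 2 bases apart, which contains both pair forms) stood in 4 members (Dnajb6, Hspd1, Hspe1 and Hsph1; 7.84%, against 0.624% of genes of the table). The endoplasmic reticulum stress element, CCAAT and CCACG with 9 bases between on either strand, stood in 3 members, Hspa5, Hsp90b1 and Dnajc3 (5.88%, against 0.136%). These matches describe letters and not bound sites. The bases before the start are shown for Hspb1, Hspa1b, Dnajb6 and the pair of Hspd1 and Hspe1, genes the results below turn on, 5′ to 3′ on the strand named and with the heat shock units in capitals:
Hspb1, chr5:135887669-135887918, plus strand: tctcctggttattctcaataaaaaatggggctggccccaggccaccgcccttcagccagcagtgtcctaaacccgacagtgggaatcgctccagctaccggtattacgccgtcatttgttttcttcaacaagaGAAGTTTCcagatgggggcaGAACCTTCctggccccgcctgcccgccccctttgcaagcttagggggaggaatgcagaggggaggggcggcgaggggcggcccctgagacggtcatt
Hspa1b, chr17:34959239-34959488, minus strand: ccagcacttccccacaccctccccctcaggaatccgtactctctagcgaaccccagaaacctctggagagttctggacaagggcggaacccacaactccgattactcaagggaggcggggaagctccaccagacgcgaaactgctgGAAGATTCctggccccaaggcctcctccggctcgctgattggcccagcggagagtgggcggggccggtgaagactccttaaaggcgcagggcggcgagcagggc
Dnajb6, chr5:29735648-29735897, plus strand: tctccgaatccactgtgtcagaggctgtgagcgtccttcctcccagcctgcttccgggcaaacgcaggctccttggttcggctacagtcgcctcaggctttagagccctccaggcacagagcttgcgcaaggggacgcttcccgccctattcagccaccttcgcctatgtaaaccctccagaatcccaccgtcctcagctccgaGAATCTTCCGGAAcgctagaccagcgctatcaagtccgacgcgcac
Hspd1 and Hspe1, chr1:55087933-55088147, the 215 bases between the 2 divergent starts, read on the minus strand: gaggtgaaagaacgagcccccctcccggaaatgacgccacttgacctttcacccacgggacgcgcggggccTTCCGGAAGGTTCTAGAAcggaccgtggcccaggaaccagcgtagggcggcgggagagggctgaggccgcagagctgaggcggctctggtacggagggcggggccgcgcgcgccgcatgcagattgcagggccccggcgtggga

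The Hspb1 pairs began 117 and 97 bases before the start, and the single Hspa1b pair 104 bases before it. Hspd1 and Hspe1 share 1 stretch of DNA and within it 1 unbroken block of units, with the 2 genes pointing away from it. The genes of the endoplasmic reticulum are shown for contrast, with their stress elements in capitals:
Hspa5, chr2:34771840-34772089, plus strand: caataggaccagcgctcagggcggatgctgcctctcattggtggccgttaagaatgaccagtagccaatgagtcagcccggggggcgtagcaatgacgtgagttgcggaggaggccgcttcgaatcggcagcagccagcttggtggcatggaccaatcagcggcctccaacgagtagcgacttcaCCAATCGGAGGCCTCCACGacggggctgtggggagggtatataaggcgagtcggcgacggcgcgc
Hsp90b1, chr10:86705445-86705694, minus strand: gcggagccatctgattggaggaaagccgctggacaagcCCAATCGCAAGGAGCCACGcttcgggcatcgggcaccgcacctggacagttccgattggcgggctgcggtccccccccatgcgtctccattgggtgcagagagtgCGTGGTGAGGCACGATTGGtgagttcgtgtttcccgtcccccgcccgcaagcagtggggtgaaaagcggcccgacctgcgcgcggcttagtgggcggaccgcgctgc
Dnajc3, chr14:118937682-118937931, plus strand: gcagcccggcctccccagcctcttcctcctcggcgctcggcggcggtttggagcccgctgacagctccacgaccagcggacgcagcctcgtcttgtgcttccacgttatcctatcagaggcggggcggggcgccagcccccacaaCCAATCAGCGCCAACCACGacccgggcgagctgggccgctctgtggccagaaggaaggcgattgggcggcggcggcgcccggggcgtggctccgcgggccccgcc

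The 310 cells held from 11711 to 721564 reads each (median 61294) and a median of 3340.5 genes. On C114 11 wells are named by 2 cells each, so its cell counts may hold a well 2 times. Plate C114 stood apart from the other plates. Ribosomal protein genes took 31.5% of its reads (median cell, 3.38% to 6.66% elsewhere) and mitochondrial genes 2.77% (9.69% to 33.8% elsewhere). Results that rest on C114 are therefore given with and without it. Without it RepI is C118 alone, with 17 cells. C118 stood apart too, with the 33.8% of mitochondrial reads, against 9.69% to 18.3% on C119, C128 and C129. The labels' batch tag and alternative batch tag place C128 and C129 in opposite batches. The keratinocyte gene Krt14 was read in all replicates, at 19617, 4626, 1809 and 825 CPM (reads of the gene per 1000000 reads; where 4 values stand in a row they are those of RepI, RepL, RepM and RepN). Markers of other cells were low: 2 of 8 immune markers were listed (summed 1.28 to 2.93 CPM) and 3 of 5 melanocyte markers (10.1 to 25.7 CPM). Of 5 fibroblast markers 4 were listed (8.27 to 62.7 CPM, highest in RepI), and of 4 endothelial markers Kdr stayed under 0.5 CPM while Pecam1 alone reached 1263 to 8774 CPM.

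Reads of the 63 genes were 0.557% of the reads of a cell on average, from 0.173% to 1.92%, and a median of 24 members had a read in a cell. By mean CPM over the 4 replicates, the 5 most abundant genes made up 43.4% of the summed level of the 63: Hsp90ab1, Hspa8, Hspb1, Dnaja2 and Dnaja1. Per kilobase of merged exon, the highest mean over the 4 replicates was that of Hspb1, the small heat shock protein of the differentiating epidermis, at 362 ± 375 CPM per kb (SD, n = 4). Its SD is as large as its mean. Below it came the constitutive cytosolic pair Hsp90ab1 (272 ± 164 CPM per kb) and Hspa8 (162 ± 61.2), the J-domain protein Dnaja2 (120 ± 50.2), and Hspe1 (101.4 ± 29.5). Hsp90aa1, the stress-responsive HSP90, stood at 69.7 ± 18.8 CPM per kb, Hspd1 at 60.2 ± 24.2 and Hspa1b at 54.8 ± 36.3. Among these 8 genes neighbours in the order differed by less than the larger of their SDs, except Hspe1 and Hsp90aa1, whose means lay slightly further apart.

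Hspa1a and Hspa1b encode almost the same protein and shared reads were divided by the authors' quantification, so their split (12.1 ± 3.92 against 54.8 ± 36.3 CPM per kb) is uncertain. At the low end, 13 members had a read in under 10% of cells, and Hspa12a, Dnajb5 and Dnajb13 were too low to be tested between groups. Hspa12a had reads in 7 cells, Dnajb5 in 8 and Dnajb13, a sperm flagellum gene, in 7.

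**Figure D1:**
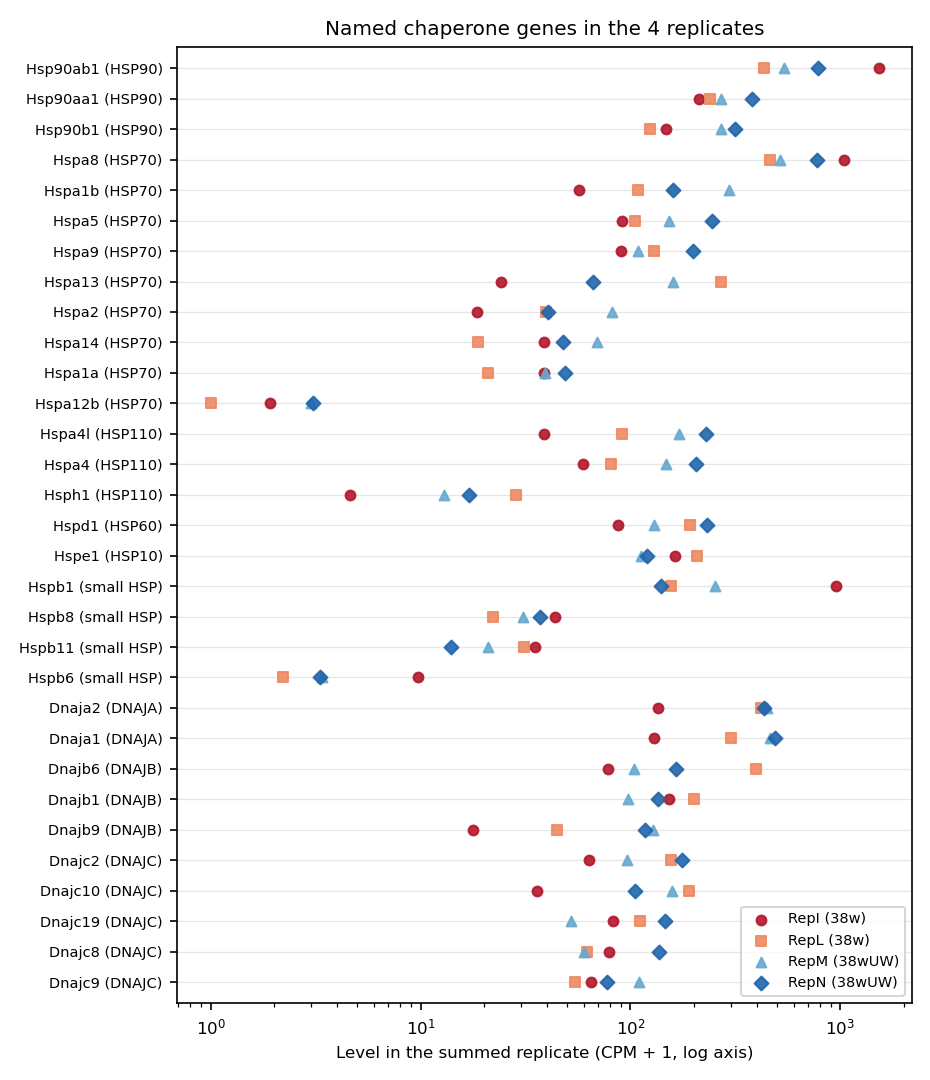
Level of 31 chaperone genes in each replicate (x axis, CPM + 1, log axis), grouped by family from HSP90 at the top to DNAJC; red and orange symbols are 38w, blue symbols 38wUW. Hsp90ab1 and Hspa8 lead in every replicate, and Hspb1 ranges from 139 CPM in RepN to 949 in RepI, next to Hspa8 there.

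Most members were spread unevenly over cells. The 31 cells richest in reads of a gene held a median of 79.5% of its reads over the members. Of the 5 most abundant genes Hspa8 and Hsp90ab1 were the most even: both had a read in 307 of 310 cells, and their richest cells held 51.0% and 52.6% of the reads. Hspb1 had a read in 221 cells, of which the highest, on C114, reached 17402 CPM against a median of 61.7 CPM over all cells. Above 1000 CPM of Hspb1 stood 12 cells of C114, 0 of C118, 2 of C119, 10 of C128 and 3 of C129. Hsph1, the stress-induced HSP110 gene, had reads in 38 cells only, and Dnaja4 in 36.

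The share of a cell's reads in the 63 genes did not separate the groups. Replicate means were 0.603% for RepI and 0.427% for RepL, against 0.545% for RepM and 0.648% for RepN. RepL was the lowest and RepN the highest, and RepI lay between the 38wUW replicates. The group means were 0.515% ± 0.124 and 0.596% ± 0.0728 (SD, n = 2 each), and the difference of -0.081 percentage points had p = 0.667 in an exact two-sided permutation test of the replicate means, for which 2 against 2 cannot give a p under 0.333. With RepI from C118 only (mean 0.535%), the difference was -0.115 points. Within the batch tag the sign turned: 38w was lower in the first batch (0.447% on C118 and C119, 0.648% on C129) and higher in the second (0.625% on C114, 0.545% on C128). Under the alternative tag 38w was lower in both batches (0.447% against 0.545% on C128, and 0.625% against 0.648% on C129). These values use all reads of a cell. With mitochondrial and ribosomal protein genes left out, RepI was the highest at 0.938%, above RepN (0.874%), RepM (0.710%) and RepL (0.517%). The difference of the group means was then -0.064 points. Under either tag 38w was then lower in the first batch (0.579% on C118 and C119) and higher in the second (0.965% on C114). C128 had 0.710% and C129 0.874%.

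**Figure D2:**
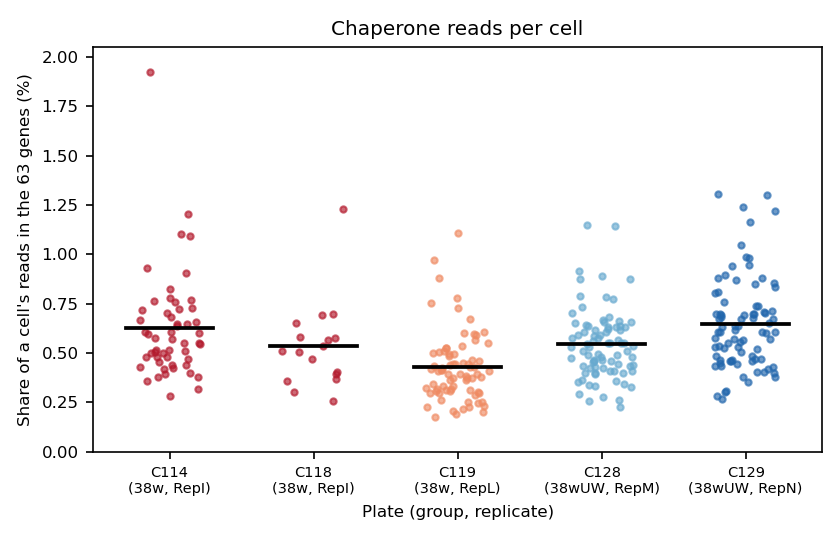
Share of each cell's reads in the 63 genes (y axis, %) by plate, one point a cell, with a bar at the plate's mean. The means run from 0.427% on C119 to 0.648% on C129, and the cells of every plate overlap those of the others.

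Between the groups, edgeR's quasi-likelihood test with Benjamini-Hochberg adjustment over 11757 genes called 0 of the 60 members that passed the low-count filter, where it called 0% of all genes. DESeq2 also called 0 members (5 at an unadjusted p under 0.05) and 67 genes in all. The share of all genes under that unadjusted p is not given for DESeq2, so the 5 cannot be called many or few. At an unadjusted p under 0.05 edgeR had 3 members, Dnajc6, Dnajc18 and Dnajc28, a 5% share against 8.07% of all genes, and the lowest adjusted p of a member was 0.615. All 3 were sparse: Dnajc6 had reads in 15 cells, Dnajc28 in 13 and Dnajc18 in 47. The median log2 fold change of the 60 members was -0.24 (26 above 0), against 0.12 for all genes.

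Both 38w replicates lay below both 38wUW replicates for 27 of 60 members, where this held for 26.2% of all genes, and above them for 3 members, Hspe1, Hspb11 and Dnajb1, where this held for 12.6%. These counts and shares use CPM of summed reads. With TMM-scaled libraries they were 21 and 5 and with DESeq2 size factors 20 and 7. With RepI from C118 only they were 25 and 4. The shares of all genes under these alternatives are not given here, so these counts have no background beside them. Whether fewer cells of a type or less RNA a cell stands behind a lower value cannot be told apart in summed reads. Cells with the highest basal marker score, described below, were 34 of 70 in RepI, 30 of 75 in RepL, 20 of 82 in RepM and 12 of 83 in RepN, and the part of this makeup in the differences was not tested.

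**Figure D3:**
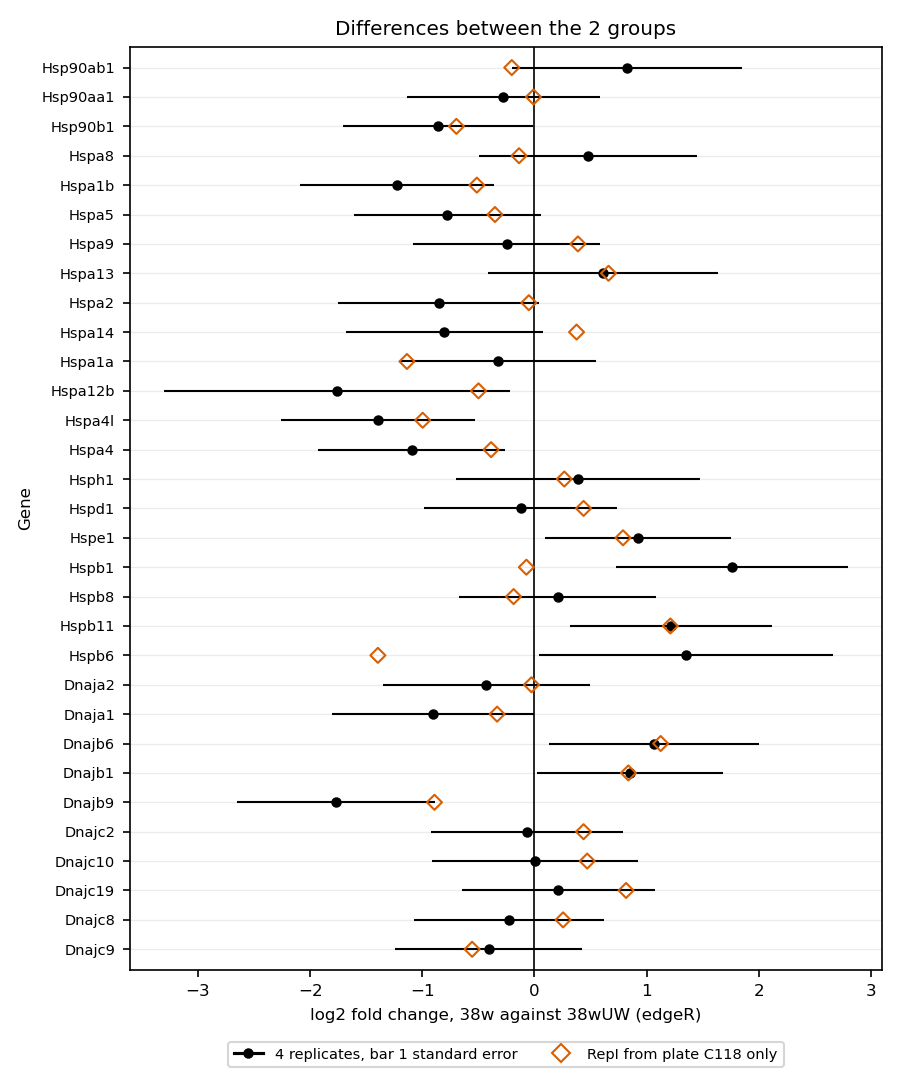
Fitted log2 fold change of 31 chaperone genes, 38w against 38wUW (x axis), with 1 standard error; open diamonds give the fit with RepI from plate C118 only. No gene passed the test, and Hspb1 moves from 1.76 to -0.07, Hsp90ab1 from 0.83 to -0.20 and Hspa8 from 0.48 to -0.14 when C114 is left out.

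The constitutive cytosolic HSP90 and HSP70 genes were highest on C114. Hsp90ab1 was read at 1521 and 430 CPM in the 38w replicates and at 536 and 780 CPM in the 38wUW replicates. RepI lay above the other replicates through C114 alone (1734.5 CPM, against 525 on C118), and the fitted log2 fold change of 0.83 ± 1.03 (SE; adjusted p = 0.838) became -0.20 with C118 as RepI. Hspa8, the everyday HSP70 that also strips clathrin coats from vesicles, followed the same course at 1036, 462, 517 and 771 CPM. Its C114 level was 1147 CPM and its C118 level 517, and the log2 fold change went from 0.48 to -0.14. Hsp90aa1 stood at 211, 238, 268 and 379 CPM, a log2 fold change of -0.28 ± 0.86. Its groups did not overlap, but with C118 as RepI they did (298 CPM, 192 on C114).

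Both stress-inducible HSP70 genes had lower levels in 38w, and neither passed the test. Hspa1b had 55.9 and 108 CPM in 38w and 293 and 158 CPM in 38wUW. The groups did not overlap, and the fitted difference was -1.22 ± 0.86 (log2, SE; adjusted p = 0.713). Without C114 it was -0.51, since C118 had 156 CPM. Hspa1a, whose reads cannot be parted from those of Hspa1b with certainty, had 37.6, 19.999, 38.2 and 47.9 CPM; with C118 as RepI its log2 fold change went from -0.32 to -1.14. The immediate early genes, which answer to cell handling as well as to signals, were also lower in both 38w replicates: the 25 genes listed summed to 2035 and 4742 CPM in 38w and 5520 and 7479 CPM in 38wUW, 14 of the 25 being lower in 38w without overlap, where this held for 26.2% of all genes. Their part in the chaperone values was not tested.

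Of the HSP110 genes, which renew ATP on HSP70, 2 of 3 were lower in 38w without overlap, where this held for 26.2% of all genes. Hspa4l had 37.7 and 90.3 CPM in 38w against 169 and 229 CPM in 38wUW, a log2 fold change of -1.39 ± 0.86 (adjusted p = 0.686). Hspa4 had 58.4 and 80.2 CPM against 147 and 205 (-1.10 ± 0.83, adjusted p = 0.728). Both stayed below 0 without C114, at -0.996 and -0.39. Hsph1, the third member and the one with a run of 3 heat shock units, overlapped between groups at 3.599, 27.6, 11.9 and 16.1 CPM. Among the remaining HSP70 genes, Hspa2, best known from sperm formation, had 17.5 and 38.8 CPM against 80.6 and 39.3, and Hspa14, a ribosome-bound relative, 37.5 and 17.8 against 68.5 and 46.5. On C118 these 2 genes had 58.2 and 106 CPM, so that without C114 both overlapped. Hspa13 stood out by its spread between replicates, at 23.0, 268, 158 and 65.04 CPM.

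Hspb1 had the highest log2 fold change of the 31 genes shown here. It was read at 949 and 156 CPM in 38w and at 251 and 139 CPM in 38wUW. RepI was 1 high replicate beside 3 low ones, and the groups overlapped. The log2 fold change of 1.76 ± 1.03 (adjusted p = 0.667) rested on C114, with 1119 CPM and 67.4% of all Hspb1 reads in 53 cells; C118, the other plate of RepI, had 156 CPM, and with it as RepI the value was -0.07. Without RepL, which leaves RepI alone to stand for 38w, the test called Hspb1 (2.62, adjusted p = 0.00294), Dnajb9 (-2.52, adjusted p = 0.0477) and Dnajc4, 3 of 61 members where it called 9.46% of all genes. Hspb8 and Hspb6 overlapped between the groups: Hspb8, a partner of BAG3 in autophagy, had 42.5, 21.0, 29.8 and 35.9 CPM, and Hspb6 8.74, 1.21, 2.38 and 2.32 CPM, with 10.6 CPM on C114 and 0 on C118. Hspb11 was higher in both 38w replicates (34.1 and 30.0 CPM against 19.9 and 12.9), and kept a log2 fold change of 1.21 without C114.

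In the endoplasmic reticulum the HSP90 and HSP70 of that compartment went the same way. Hsp90b1 had 147 and 123 CPM in 38w against 268 and 314 in 38wUW, and Hspa5 90.1 and 104 against 152 and 244. Neither overlapped over the 4 replicates, but with C118 as RepI Hspa5 did (154 CPM, 76.3 on C114). The log2 fold changes were -0.86 ± 0.85 and -0.78 ± 0.83 (adjusted p = 0.790 and 0.811). Dnajb9, which restrains the stress sensor IRE1 by loading Hspa5 onto it, had the lowest log2 fold change of the 31 genes shown: 16.8 and 43.8 CPM against 126 and 117 (-1.77 ± 0.89, adjusted p = 0.632). Its C114 level was 6.25 CPM and its C118 level 65.7, and without C114 the value was -0.89. Dnajc3 overlapped at 47.5, 113, 44.4 and 51.5 CPM. Dnajc10, which breaks disulfide bonds, overlapped as well (34.9, 189, 158 and 104 CPM). Of the 10 members placed in this compartment, 5 were above 0 and 5 below, with a median log2 fold change of -0.20.

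The mitochondrial members showed no common direction. Hspd1 had 86.2, 192, 128.7 and 230 CPM, with overlap (-0.12 ± 0.86). Hspe1, its lid, had 162 and 206 CPM against 112 and 118.3, both 38w replicates being higher (0.92 ± 0.83, adjusted p = 0.776). Whether the 2 genes differed from each other in this was not tested. Hspa9, the mitochondrial HSP70, had 88.7, 128.3, 108 and 198 CPM, and Dnajc19, a part of its import motor, 81.1, 110, 51.2 and 146 CPM. Of 9 mitochondrial members 5 were above 0 and 4 below, at a median of 0.21.

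Among J-domain proteins, all 4 DNAJA genes were below 0 in the fit. Dnaja1, which partners Hspa8 in the cytosol, had 128.7 and 299 CPM in 38w against 461 and 486 in 38wUW, and Dnaja2 134 and 419 against 447 and 430. For both the low value was that of C114, at 85.6 and 97.3 CPM. Without it the log2 fold changes went from -0.90 to -0.33 and from -0.43 to -0.026. Dnajb1, the stress-induced partner of HSP70, was higher in both 38w replicates (152 and 199 CPM against 96.7 and 134; 0.85 ± 0.83), the opposite of Hspa1b. When each cell had the same weight the Dnajb1 difference was -0.05. Dnajb6, which holds back aggregates of polyglutamine proteins, had 1 high replicate, RepL, at 395 CPM against 77.4, 103 and 163 elsewhere.

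DNAJC genes, which have the J domain and little else in common, had 11 values above 0 and 14 below, with a median of -0.12. The ribosome-bound Dnajc2 had 62.7, 156, 95.2 and 175 CPM, Dnajc8, a splicing factor partner, 78.3, 61.2, 58.9 and 136 CPM, and the histone chaperone Dnajc9 64.2 and 53.3 against 109 and 76.5 CPM. Dnajc4, named here after its values were seen, had 30.3 CPM in RepI against 3.63 to 4.57 elsewhere, all from C114 (36.4 CPM, with 2.33 on C118).

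**Figure D4:**
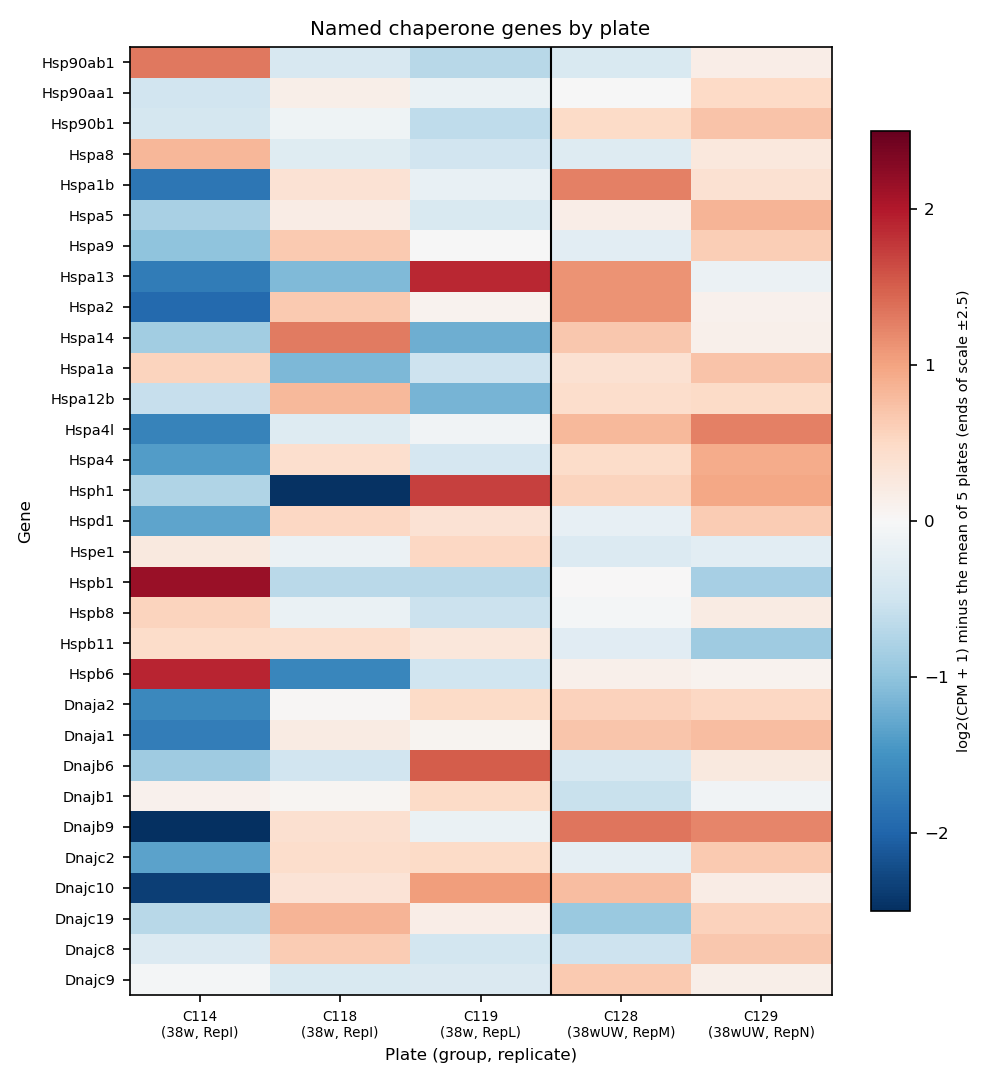
Log2(CPM + 1) of 31 chaperone genes on each plate minus the gene's mean over the 5 plates (colour, red above and blue below the mean, scale ending at 2.5 each way); a black line parts 38w from 38wUW. C114 holds many of the strongest colours, dark red for Hspb1 and Hspb6 and dark blue for Dnajb9, Dnajc10 and Hspa2, while C118 of the same replicate is paler for these genes apart from Hspb6 and has its own dark blue at Hsph1.

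C114 was the highest of the 5 plates for 12 of the 60 tested members and the lowest for 23, where it was the highest for 29.5% and the lowest for 36.3% of all tested genes.

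With each cell thinned to 20000 reads (277 of 310 cells reached this), shares of cells with a read were lower in both 38w replicates for some of the same genes. Hspa1b was read in 48.5% (95% Wilson interval 37.1 to 60.2) and 61.4% of 38w cells and in 79.7% and 74.7% of 38wUW cells. Dnaja1 was read in 57.4% and 64.3% against 78.1% and 90.7%, and Hspa5 in 44.1% and 51.4% against 67.2% and 61.3%. For Hspa1b, Dnaja1 and Hspa5 the groups did not overlap, and p was 0.333 in the exact two-sided permutation test of the replicates, the smallest it can give. On C114 alone Hspa1b was read in 39.2% of cells and on C118 in 76.5%, so that RepI without C114 lay between RepM and RepN. Dnaja1 was read in 49.0% of cells on C114 and 82.4% on C118, the latter above RepM, and Hspa5 in 45.1% and 41.2%. Hspa8 (95.7% to 98.7%) and Hsp90ab1 (97.1% to 100%) were near the ceiling everywhere, Hsp90aa1 was at 63.2% and 55.7% against 67.2% and 77.3%, and Hspa1a at 26.5% and 20% against 32.8% and 28.0%, both without overlap and with p = 0.333 in the same exact permutation test; unthinned, these 2 genes overlapped. Hspb1 (75.0% and 52.9% against 60.9% and 54.7%) and Dnajb1 (58.8% and 32.9% against 54.7% and 49.3%) overlapped. Unthinned, Hspa1b was at 61.4%, 72.0%, 78.0% and 88.0%. The intervals cover counting error only, since reads amplified by PCR are not independent molecules.

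Members were also compared across cells within a plate, in the thinned cells (17 to 75 a plate), for the 22 genes read in at least 40% of them. Cells of a plate share their library preparation and their reads sum to a fixed number. Of 231 pairs 25 had a Spearman correlation above 0 on all 5 plates and 9 below 0 on all 5, and the median of the pairs' means was 0.026. Some pairs would share a sign on all 5 plates without any association, and whether these counts exceed that was not tested. The closest pair was Hsp90ab1 and Hspa8, with rho from 0.285 to 0.519, followed by Hspd1 with Hspa8 (0.234 to 0.347) and Hsp90aa1 with Hspa8 (0.181 to 0.445). The chamber and lid genes Hspd1 and Hspe1 were at 0.042 to 0.289. Hspb1 had a rho below 0 on all 5 plates with Hspe1 (-0.211 to -0.420), Hspd1 (-0.148 to -0.539), Hsp90aa1, Hspa9 and Dnajc8, and above 0 on all 5 with Hspa13 (0.010 to 0.150). Hsp90b1 and Hspa5 varied from -0.016 to 0.376.

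Each cell was then given the class of its highest marker score among 6 sets of keratinocyte markers, which hold no chaperone. This is a range and not a cell type: for 83 of 310 cells the next score was within 0.25, and the junctional zone and infundibular sets share Krt17. Levels are given for replicates with at least 5 cells, as a description. Hspb1 was highest in 1 of the 2 differentiated classes in each replicate. Among cells scored as infundibular and duct differentiated it had 2302, 283, 556 and 340 CPM, and among interfollicular differentiated cells 1869, 493, 282 and 140 CPM. Basal cells had 171, 58.2, 26.9 and 36.8 CPM, less than either differentiated class in all 4 replicates. Cells scored as sebaceous gland had 17.1, 32.2 and 6.26 CPM in RepL, RepM and RepN, the least of any class in RepL and RepN but above basal cells in RepM, and junctional zone cells had 564, 183 and 293 CPM in RepI, RepM and RepN. With C118 as RepI the order did not hold in that replicate, where 6 interfollicular cells had 61.1 CPM and 6 basal cells 85.8. All 8 infundibular and duct cells of RepI were on C114, so without it RepI has no value for that class in any gene.

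Hspa8 had the reverse order between basal and differentiated cells. It was at 1437, 507, 963 and 987 CPM in basal cells, above the interfollicular (574, 243, 424 and 305 CPM) and the infundibular and duct classes (526, 188, 284 and 393 CPM) in every replicate, and with C118 as RepI it was at 449 CPM in basal and 376 in interfollicular cells. Hspd1, of the mitochondrial chamber, was at 370, 397 and 362 CPM in sebaceous cells of RepL, RepM and RepN and at 14.8, 28.1, 37.6 and 107 CPM in infundibular and duct cells. Hspe1 had 233, 275 and 260 CPM against 27.3, 69.2, 54.6 and 127 CPM in the same classes. In these 3 replicates the lipid-making sebaceous cells (9, 5 and 13 cells) had the highest Hspd1 of any class. Hspe1 was higher still in basal cells of RepL (285 CPM) and in junctional zone cells of RepM (302 CPM). With only cells of a margin of at least 0.25, RepM fell under 5 sebaceous cells. Hspd1 stayed highest in sebaceous cells of RepL (415 CPM) and RepN (466 CPM). Hspa5 parted the 2 differentiated classes, with 223, 197, 129.1 and 308 CPM in infundibular and duct cells and 50.9, 29.2, 88.7 and 36.1 CPM in interfollicular cells. For each of these genes the RepI value in infundibular and duct cells rests on C114 alone. Hspb8 went with Hspb1 in part, at 57.9, 56.4, 47.0 and 53.4 CPM in interfollicular and 43.8, 14.7, 6.12 and 6.14 CPM in basal cells.

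**Figure D5:**
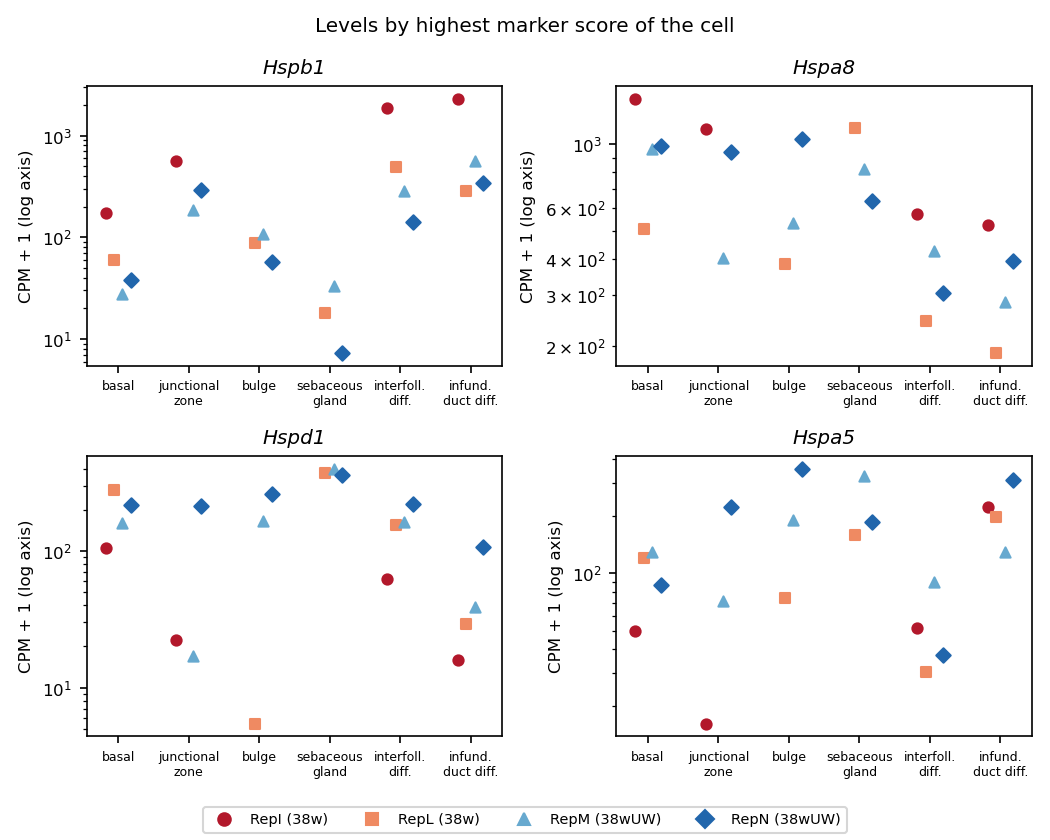
Level of 4 chaperone genes (y axis, CPM + 1, log axis) by the class of the cell's highest marker score (x axis), one symbol a replicate with at least 5 cells of the class; red and orange are 38w, blue 38wUW. Hspb1 lies higher in the 2 differentiated classes than in basal cells in each replicate, and Hspa8 lies higher in basal than in differentiated cells. Hspd1 peaks at 362 to 397 CPM in sebaceous cells. Hspa5 is higher in infundibular and duct cells than in interfollicular cells in each replicate. The RepI symbols of the infundibular and duct class hold 8 cells, all from C114.

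Among the genes that work with these chaperones the edgeR test called 0 as well. At an unadjusted p under 0.05 it had Aarsd1, 1 of 24 heat shock factors and co-chaperones, and Pfdn6, 1 of 14 chaperonin and prefoldin subunits. It also had 3 of 25 immediate early genes, Fosl1, Nr4a1 and Gadd45b. Of all genes 8.07% were under that unadjusted p. Of 24 heat shock factors and co-chaperones 16 were above 0 and 8 below (median log2 fold change 0.68, against 0.12 for all genes), the most abundant being Ptges3, the HSP90 co-chaperone p23 (197, 408, 417 and 461 CPM), and St13, which links HSP70 to HSP90 (84.8 and 117 against 230 and 205 CPM). Of 14 subunits of the cytosolic chaperonin and prefoldin, which fold actin and tubulin, 9 were above 0 and 5 below (median 0.43), led by Cct8 (184, 333, 388 and 404 CPM) and Tcp1 (325, 280, 257 and 419 CPM). Of 19 genes of the unfolded protein response and endoplasmic reticulum folding 12 were above 0 and 7 below (median 0.41), led by Pdia3 (209, 609, 599 and 643 CPM) and Canx (110, 357, 453 and 410 CPM). The 12 inducible cytosolic members of the family had 7 above 0 and 5 below, with a median of 0.30. The 25 immediate early genes had 5 above 0 and 20 below, at a median of -0.48, led by Fos (620, 2243, 1942 and 2761 CPM) and Egr1 (168, 293, 582 and 1051 CPM).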

How the data were processed

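Single tdTomato-positive keratinocytes were sequenced by a modified Smart-seq2 (75-base single-end reads, no molecular identifiers). The authors quantified reads with Salmon 0.13.1 on the Ensembl 101 mouse transcriptome (GRCm38) and deposited estimated counts per gene and cell, without normalization; per the study's methods, cells with few genes or mostly mitochondrial reads and genes found in very few cells had been removed. From these expected counts, 3.60% of which were not whole, reads were summed per replicate and rounded, then tested with edgeR 4.0.16 (R 4.3.3; filterByExpr, TMM, quasi-likelihood F test, Benjamini-Hochberg over all genes, threshold 0.05). DESeq2 1.42.0 and, with equal weight per cell, limma 3.58.1 on log2(CPM + 1) were alternatives. The fit was also run on simulated counts. The outcome of that run is not given here, so nothing follows from it about what the fit could find at the spread of these replicates. CPM used summed reads, and lengths were merged GENCODE exons (13769 of 14068 genes, 62 of 63 members). The design had assumed whole counts. Depth was 5472070 to 12946742 reads a replicate.

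Members, gene lists and marker sets were chosen with earlier results of these data known. Named genes were the tested heat shock genes, the 10 DNAJ genes of highest mean CPM, and, among members with average log2 CPM of at least 4 and no overlap between groups, the 3 highest and 3 lowest log2 fold changes, 32 genes in all, of which 1 is not reported here. Other lists name their 2 genes of highest mean CPM. Dnajc3, Dnajc4, Dnajc6, Dnajc18, Dnajc28, Dnaja4, the untested members and the genes given for an unadjusted p were named after their values were seen. Replicate letters are not shared between groups. Plates paired by the batch tag had deviations correlated at 0.158 and by the alternative tag at -0.158. Replicates may not be separate animals, so p-values measure the spread between these samples. Cells whose names carry an unexplained suffix (15) were kept. In 11 wells of C114 a cell with a suffix stands beside a cell without one. The labels do not say whether these are 2 cells or 1 cell entered 2 times. The suffix MBULK is carried by 2 cells, which may be pools of cells.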

Additional observations from a re-analysis of the deposited data

How the results depend on the processing

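With 2 replicates a group, 1 replicate or plate could decide a value, and the cause of each change below was not tested. Over all genes 0 calls became 67 with DESeq2, 1 without the low-count filter, 2 with equal weight per cell, 13 with 4 plates and the batch tag as replicate block, 1 with the alternative tag as replicate block, and 0 to 1223 on leaving out 1 replicate (RepI gave 125 and RepL 1223; the lone replicate is assumed to vary like the others). Over the members the count stayed 0 in each of these except without RepL (range 0 to 3). The median log2 fold change of the members was -0.16 with DESeq2, -0.16 with its size factors in edgeR, -0.11 with RepI from C118 only, -0.16 in thinned cells, -0.53 with equal weight per cell, and -0.39 to -0.17 when 1 replicate was left out; it lay below that of all genes in each. The difference in the share of reads was -0.169 to 0.0069 points when 1 replicate was left out, above 0 without RepL. Members with 38w higher without overlap numbered 5 with TMM-scaled libraries and 7 with DESeq2 size factors, alternatives added after the data were seen. The shares of all genes under these scalings are not given here.

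Among log2 fold changes of named genes under the alternatives 426 kept direction and call, 49 turned sign and 2 became calls (Hspb1 and Dnajb9, without RepL). With RepI from C118 only the values were -0.20 for Hsp90ab1, -0.14 for Hspa8, -0.071 for Hspb1, -1.40 for Hspb6, -0.19 for Hspb8, 0.44 for Dnajc2, 0.26 for Dnajc8, 0.38 for Hspa14, 0.39 for Hspa9 and 0.44 for Hspd1; with C114 only Dnajc10 was -0.097. With equal weight per cell they were -0.050 for Dnajb1, -0.45 for Dnajb6, -0.66 for Dnajc10, -0.52 for Hspa13, -0.30 for Hspb8 and -0.43 for Hsph1. In thinned cells they were -0.0074 for Dnajb6, -0.33 for Dnajc10, 0.076 for Dnajc9 and -0.28 for Hspb8. With DESeq2, and with its size factors, Dnajc2 was 0.016. With the batch tag as replicate block Dnajc10 was -0.83, Hspa13 -0.098 and Hsph1 -0.00095, and with the alternative tag as replicate block -0.83, -0.10 and -0.011. When 1 replicate was left out the ranges were -1.37 to 0.16 for Dnaja2, -0.44 to 1.803 for Dnajb6, -1.57 to 0.76 for Dnajc10, -0.33 to 1.13 for Dnajc19, -0.77 to 0.44 for Dnajc2, -0.69 to 0.48 for Dnajc8, -0.38 to 1.55 for Hsp90ab1, -1.94 to 1.497 for Hspa13, -0.87 to 0.15 for Hspa1a, -0.25 to 1.03 for Hspa8, -0.60 to 0.24 for Hspa9, -0.096 to 2.62 for Hspb1, -0.72 to 2.23 for Hspb6, -0.41 to 0.71 for Hspb8, -0.72 to 0.34 for Hspd1 and -1.62 to 1.21 for Hsph1. Shares of cells with a read turned sign for Hspa8 (0.505 points unthinned), Hsp90ab1 (-0.724 unthinned, -1.96 thinned to 10000 reads, -0.743 to 2.11 when 1 replicate was left out), Hspb1 (-4.90 with RepI from C118 only, -4.94 to 17.2 when 1 replicate was left out) and Dnajb1 (-19.2 to 6.81 when 1 replicate was left out). Of 72 comparisons of class levels 4 moved by more than the spread between replicates.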
